A study of Mus musculus with 18 samples.

Results

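*Ccny* knockout (KO) and wild-type (WT) mice were compared after original learning, the phase of the Morris water maze in which a mouse learns where a hidden platform lies. All 3 KO_OL and all 3 WT_OL libraries of the deposited table were taken, 6 of 18 libraries, with all 15329 listed genes. Each library was hippocampal RNA of a male mouse of the C57BL/6J strain aged 8 to 10 weeks, and the groups shared the training and differed in the genotype at *Ccny*. The other libraries, 3 of each genotype, came from untrained mice (WT_Basal, KO_Basal) and from mice that had also gone through reversal learning (WT_RL, KO_RL), and they entered the fit to estimate the spread of each gene. How the allele was disrupted is not given in the sources used here.

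*Ccny* encodes cyclin Y, a membrane-bound cyclin that activates the kinases CDK14 and CDK16. With CDK14 it phosphorylates the Wnt co-receptor LRP6, and in neurons it sits at the postsynaptic side of excitatory synapses. The hippocampus holds the spatial map that the water maze taxes, and its RNA mixes excitatory and inhibitory neurons with glia, blood vessels and the attached meninges and choroid plexus. In such bulk tissue, fewer cells of a type and less RNA per cell cannot be told apart.

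The 6 libraries held 31830344 to 35976583 reads on genes of the table, and 1 read was worth 0.0280 to 0.0309 CPM, the read count scaled to a common library size. Replicate 2 of WT_OL stood apart from its group. Its log2 values correlated across genes at r = 0.984 with replicate 3 and 0.991 with replicate 1, against 0.995 between replicates 1 and 3, and the pairs of KO_OL libraries lay between 0.994 and 0.996. The deviation of this library from the mean of all libraries ran with transcript length (Spearman's correlation across genes -0.48), so list counts are also given without it. It was not alone in this: the same correlation was 0.39 for WT_OL replicate 3 and 0.50 for KO_RL replicate 2, in the opposite direction. Within-batch values could not be given, since the labels name no batch.

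The targeted gene was lower in every KO_OL mouse. *Ccny*, on chromosome 18, stood at 75.0, 74.0 and 76.0 CPM in KO_OL and at 114, 119 and 150 CPM in WT_OL, and the groups did not overlap. The KO_OL mean was 58.7% of the WT_OL mean, a log2 fold change of -0.75 ± 0.11 (SE, n = 3 per group) with an adjusted p of 0.018 in limma. The same difference was -0.75 in untrained mice and -0.66 after reversal learning. Of the 7 relatives and partners listed with it, none passed an unadjusted p under 0.05: its paralog *Ccnyl1* differed by -0.21 (adjusted p = 0.31), the kinases *Cdk14* by 0.07 (adjusted p = 0.70) and *Cdk16* by -0.18 (adjusted p = 0.37), and the co-receptor *Lrp6* by 0.25 (adjusted p = 0.47).

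Across all genes, 10 passed an adjusted p under 0.05 (limma, Benjamini-Hochberg), which is 0.0652% of those tested. 4 rose in KO_OL, the heat shock genes *Hspa1b* and *Hspa1a*, *Banp* and *P4ha1*, and 6 fell, *Ccny*, *Arhgap29*, *Gjb2*, *Aox3*, *Pf4* and *Ranbp3l*. At an unadjusted p under 0.05, 1527 genes were higher (9.96%) and 1237 lower (8.07%). Adding a fold change over 1.5, the rule of the study, left 70 higher (0.457%) and 146 lower (0.952%). The 3 KO_OL values all lay above the 3 WT_OL values for 1166 genes (7.61%) and all below for 1363 (8.89%). An exact two-sided permutation test of 3 mice against 3 cannot give a p under 0.1, which is the value for each of the 10 genes.

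**Figure D1:**
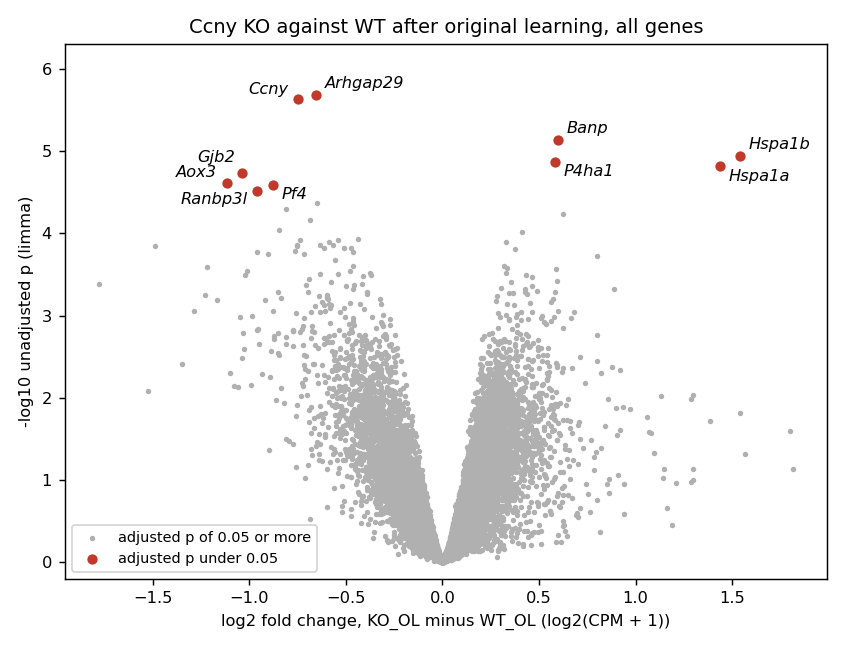
Log2 fold change of each gene (x axis, KO_OL minus WT_OL on the log2(CPM + 1) scale) against the negative log10 of its unadjusted limma p (y axis). The 10 red points are the genes with an adjusted p under 0.05, from -1.11 for *Aox3* to 1.54 for *Hspa1b*.

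The inducible Hsp70 genes showed the largest rises among the called genes. *Hspa1b* measured 28.0, 24.9 and 25.0 CPM in KO_OL and 9.73, 5.73 and 10.1 CPM in WT_OL. *Hspa1a* measured 21.5, 22.2 and 20.1 CPM in KO_OL and 8.22, 4.84 and 9.33 CPM in WT_OL. In both, every KO_OL mouse was above every WT_OL mouse, and replicate 2 was the lowest of WT_OL. The log2 fold changes were 1.54 ± 0.25 for *Hspa1b* and 1.44 ± 0.24 for *Hspa1a* (SE, n = 3 per group, adjusted p = 0.039 for each), and 1.31 and 1.19 without WT_OL replicate 2. They encode nearly identical proteins from neighbouring copies, *Hspa1b* at chr17:34956436-34959238 and *Hspa1a* at chr17:34969190-34972156 (mm10, minus strand), so reads may have been split between them and they are not independent results. *Hspa1a* also overlaps *Gm20481* on the other strand, and whether counting used the strand is not stated.

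The promoters of these genes are shown because heat shock genes are read out by heat shock factor 1, which binds repeats of a short motif. RefSeq windows of 300 bases (GRCm38.p6, minus strand, chr17:34959189-34959488 for *Hspa1b*, chr17:34972107-34972406 for *Hspa1a* and chr5:149636287-149636586 for *Hsph1*) were searched for GAANNTTC, which reads the same on both strands, and matches are in capitals.
Hspa1b: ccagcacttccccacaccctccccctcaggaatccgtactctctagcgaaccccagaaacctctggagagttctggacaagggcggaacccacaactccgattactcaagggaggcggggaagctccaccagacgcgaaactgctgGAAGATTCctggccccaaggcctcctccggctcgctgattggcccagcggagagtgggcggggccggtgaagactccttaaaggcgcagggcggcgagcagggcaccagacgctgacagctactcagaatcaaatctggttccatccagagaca
Hspa1a: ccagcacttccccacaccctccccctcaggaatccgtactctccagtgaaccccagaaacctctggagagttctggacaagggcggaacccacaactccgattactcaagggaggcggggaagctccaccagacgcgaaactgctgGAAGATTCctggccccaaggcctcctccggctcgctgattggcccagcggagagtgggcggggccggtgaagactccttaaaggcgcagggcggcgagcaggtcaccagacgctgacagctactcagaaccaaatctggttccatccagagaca
Hsph1: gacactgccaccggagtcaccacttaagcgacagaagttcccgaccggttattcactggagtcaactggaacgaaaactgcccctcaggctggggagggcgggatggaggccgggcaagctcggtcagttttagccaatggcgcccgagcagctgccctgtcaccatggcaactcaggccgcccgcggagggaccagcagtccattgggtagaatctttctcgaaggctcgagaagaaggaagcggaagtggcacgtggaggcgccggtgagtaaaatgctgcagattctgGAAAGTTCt
The motif was in 7.86% of all 32851 windows and in 9 of 24 windows of the heat shock list, which belong to 8 of its 17 genes with a window. Some of these windows overlap, as those of *Hspd1* and *Hspe1* do, and share a match, so the 9 are not independent. The window of *Hspa5*, a listed gene described below, had 0 matches. A match is a description of the letters and not of binding.

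Most of the wider list of heat shock and chaperone genes had higher values in KO_OL. Of 22 members, 17 had a higher value at an unadjusted p under 0.05 and 0 a lower one, against 9.96% and 8.07% of all genes, and 2 passed the adjusted threshold. The median log2 fold change was 0.31, beside 0.00 over all genes. *Hsph1*, an Hsp110 co-chaperone, stood at 488, 470 and 434 CPM in KO_OL and 298, 245 and 372 CPM in WT_OL, a difference of 0.62 ± 0.12 (adjusted p = 0.068). *Hspa5*, the Hsp70 of the endoplasmic reticulum, stood at 420, 411 and 462 CPM against 275, 279 and 304 CPM, a difference of 0.59 ± 0.13 (adjusted p = 0.097). For 18 of the 22 genes every KO_OL mouse lay above every WT_OL mouse and for 0 below, against 7.61% and 8.89% of all genes. Without WT_OL replicate 2, 18 members passed the unadjusted threshold and the median was 0.31. The same list had a median of -0.02 between the untrained genotypes and -0.08 after reversal learning, with 0 members at an unadjusted p under 0.05 in limma in either.

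The other called rises were smaller. *P4ha1*, a subunit of the enzyme that hydroxylates proline in collagen, measured 98.8, 99.6 and 93.6 CPM in KO_OL and 63.0, 62.4 and 68.8 CPM in WT_OL, a log2 fold change of 0.58 ± 0.10 (adjusted p = 0.039). *Banp*, a DNA-binding protein of the nuclear matrix, measured 41.8, 36.8 and 38.1 CPM against 23.2, 26.2 and 26.7 CPM, a change of 0.60 ± 0.09 (adjusted p = 0.038). Neither group pair overlapped. *Banp* overlaps *Gm27011* on the other strand.

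The falls other than that of *Ccny* ran from -0.66 to -1.11 on the log2 scale. *Gjb2*, the gap junction protein connexin 26, measured 5.24, 5.87 and 4.46 CPM in KO_OL and 12.2, 12.3 and 10.6 CPM in WT_OL, a log2 fold change of -1.04 ± 0.17 (adjusted p = 0.041). *Arhgap29*, a GTPase-activating protein, measured 17.9, 17.5 and 16.4 CPM against 28.3, 29.2 and 25.8 CPM, a change of -0.66 ± 0.09 (adjusted p = 0.018). Every KO_OL value of both genes lay below every WT_OL value. *Aox3*, an aldehyde oxidase, fell from 5.36 ± 0.32 to 1.94 ± 0.05 CPM (SD, n = 3; adjusted p = 0.044 in limma). *Pf4*, platelet factor 4, measured 0.37, 0.62 and 0.22 CPM in KO_OL and 1.57, 1.78 and 1.35 CPM in WT_OL, a change of -0.88 ± 0.15 (adjusted p = 0.044). *Ranbp3l*, of the Ran-binding protein family, measured 4.48, 5.19 and 4.71 CPM against 11.1, 11.7 and 8.22 CPM, a change of -0.96 ± 0.17 (adjusted p = 0.048).

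**Figure D2:**
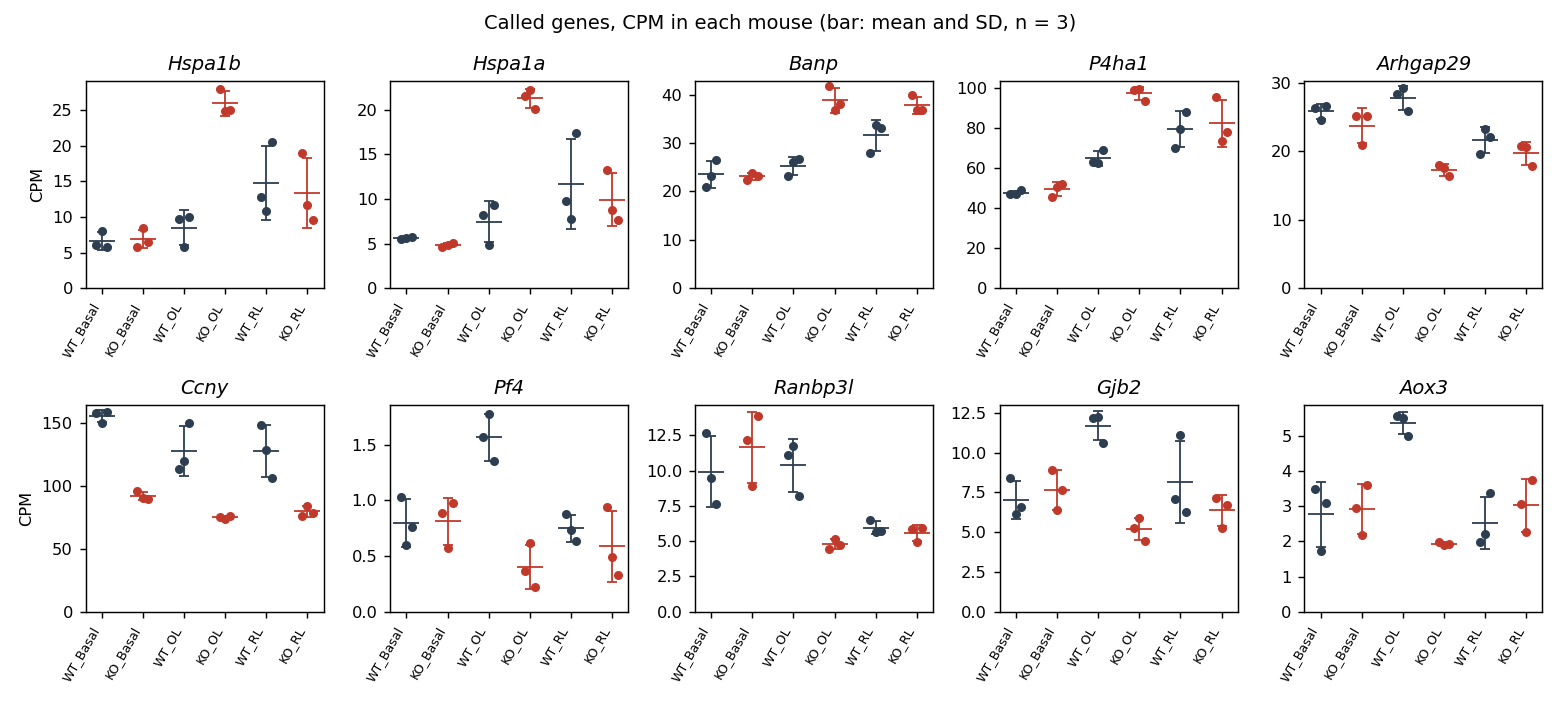
CPM (y axis, from 0) of the 10 genes with an adjusted p under 0.05 in each of the 18 mice, by group (x axis), WT dark and KO red, with the mean and SD of 3 mice. KO_OL and WT_OL do not overlap in any panel, and *Ccny* is lower in KO than in WT in all 3 conditions.

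Markers of meningeal, vascular and glial cells had mostly lower values in KO_OL, although no member of these lists passed the adjusted threshold. Of 12 fibroblast markers of the meninges, 10 were lower at an unadjusted p under 0.05 and 0 higher, with a median log2 fold change of -0.86. Over all genes 8.07% were lower and 9.96% higher. *Foxc1*, a transcription factor of meningeal fibroblasts, stood at 1.96, 2.35 and 2.64 CPM in KO_OL and 5.16, 5.04 and 4.65 CPM in WT_OL (-0.85 ± 0.17, adjusted p = 0.079). *Aldh1a2*, a retinoic acid synthase, stood at 4.45, 4.08 and 2.89 CPM against 10.4, 10.9 and 9.21 CPM (-1.23 ± 0.29, adjusted p = 0.11). The summed level of the list was 161 to 198 CPM in KO_OL and 244 to 275 CPM in WT_OL, and no marker was at 0 in all 6 libraries. *Fmod*, a collagen-binding proteoglycan, had the largest negative difference on the log2(CPM + 1) scale among the genes named by rule (-1.78), with 6.51 ± 1.20 CPM in KO_OL and 24.8 ± 4.35 CPM in WT_OL (SD, n = 3), and missed the threshold (adjusted p = 0.11 in limma).

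Of 12 markers of vascular smooth muscle and pericytes, 9 were lower at an unadjusted p under 0.05 (median -0.47). Of 12 endothelial markers 7 were (median -0.31), beside 8.07% of all genes. The summed level was 158 to 165 CPM in KO_OL and 231 to 250 CPM in WT_OL for the former, and 361 to 416 CPM and 447 to 514 CPM for the latter. *Pdgfrb*, the receptor that marks pericytes, differed by -0.41 ± 0.09 (adjusted p = 0.097), and *Slco1a4*, a transporter of brain endothelium, by -0.51 ± 0.10 (adjusted p = 0.079). Without WT_OL replicate 2 the counts were 8 fibroblast, 7 smooth muscle and 5 endothelial markers, and without WT_OL replicate 3 they were 6, 7 and 8. Over all genes 1172 and 5243 passed in either direction in these fits, beside 2764 with every library. Smooth muscle markers were lower in untrained KO mice too, with 5 of 12 at an unadjusted p under 0.05, beside 287 of 15329 genes. How much the amount of attached meninges and vessels contributed to the called genes was not tested.

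Of 14 oligodendrocyte markers 9 were lower at an unadjusted p under 0.05 (median -0.39), but 1 without WT_OL replicate 2 and 4 without WT_OL replicate 3. Over all genes 8.07% were lower with every library. In the fits without WT_OL replicate 2 or 3, 1172 and 5243 genes passed in either direction, beside 2764. In untrained KO mice 5 of the 14 were lower too (median -0.33), beside 287 of 15329 genes. Astrocyte markers gave 5 of 12 lower (median -0.23) and microglial markers 2 of 12 (median -0.13). Without WT_OL replicate 2 these counts were 4 and 1, and without WT_OL replicate 3 they were 9 and 4. The 12 ependymal markers (median 0.09) and the 24 choroid plexus markers (median 0.41) gave 0 in either direction at an unadjusted p under 0.05 in limma, and the choroid plexus markers had summed levels of 3981 to 7527 CPM in KO_OL and 3475 to 5352 CPM in WT_OL.

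Several lists of synaptic genes had more members higher than lower in KO_OL, and most of these counts were lost without WT_OL replicate 2. Of 21 AMPA and NMDA receptor genes with auxiliary proteins and CaMKII, 7 were higher and 1 lower at an unadjusted p under 0.05, and 1 and 0 without that library. Over all genes 9.96% were higher and 8.07% lower with every library. *Gria1*, an AMPA receptor subunit, stood at 1335, 1096 and 1197 CPM in KO_OL and 917, 626 and 1195 CPM in WT_OL, so that the groups overlapped (0.45 ± 0.17, adjusted p = 0.21, and 0.20 without that library). Vesicle exocytosis genes went from 8 of 27 higher to 1, and voltage-gated channel genes from 9 of 34 to 1. Without WT_OL replicate 3 the 3 lists had 13, 12 and 24 members higher. Genes passing in either direction numbered 2764 with every library, 1172 without WT_OL replicate 2 and 5243 without WT_OL replicate 3. With every library, postsynaptic scaffold genes had 5 of 21 higher and 2 lower, and GABA-A receptor genes 0 of 13 in either direction. Hippocampal neuropeptide genes were mixed, with 3 of 16 higher and 2 lower. Among these, *Vgf*, a secreted neuropeptide precursor, had groups that did not overlap and differed by 0.44 ± 0.10 (adjusted p = 0.11), and 0.36 without WT_OL replicate 2. *Vip* of the same list differed by -0.55 ± 0.26 (adjusted p = 0.27 in limma). Genes higher at an unadjusted p under 0.05 had a median transcript length of 4483 bases and those lower one of 2981, beside 3395 over all genes. The part of transcript length in these differences was not tested.

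The 36 actin regulators that the study plotted, which were chosen on these samples, gave 3 higher and 4 lower members at an unadjusted p under 0.05, and 0 passed the adjusted threshold in limma. These are shares near the 9.96% and 8.07% of all genes, and they were 0 higher and 2 lower without WT_OL replicate 2 and 10 higher and 4 lower without WT_OL replicate 3. Their median log2 fold change was -0.00, beside 0.00 over all genes. *Acta2*, the actin of smooth muscle, had the smallest p, with 21.2, 19.0 and 18.1 CPM in KO_OL and 30.8, 40.8 and 45.2 CPM in WT_OL (-0.95 ± 0.26, adjusted p = 0.14), and it is also a vascular marker above. *Ssh3*, a cofilin phosphatase, differed by -0.57 ± 0.19 (adjusted p = 0.19) and *Wasf1*, which links Rac to the Arp2/3 complex, by 0.40 ± 0.16 (adjusted p = 0.21), or 0.21 without WT_OL replicate 2.

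Activity-induced transcription factors were mixed, with 3 of 20 higher and 3 lower at an unadjusted p under 0.05 and a median of 0.05, beside 9.96% and 8.07% of all genes. Without WT_OL replicate 2 they were 1 higher and 2 lower, and without WT_OL replicate 3 they were 5 and 7. In these fits 1172 and 5243 of all genes passed in either direction. *Fos*, an immediate early gene, was at 26.9, 19.0 and 16.4 CPM in KO_OL and 35.5, 29.1 and 22.4 CPM in WT_OL, with overlapping groups (adjusted p = 0.27 in limma). The Wnt and beta-catenin list, named here because cyclin Y acts on LRP6, had 2 of 22 higher and 2 lower, near the shares over all genes, and a median of 0.01. Without WT_OL replicate 2 it had 1 in each direction.

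**Figure D3:**
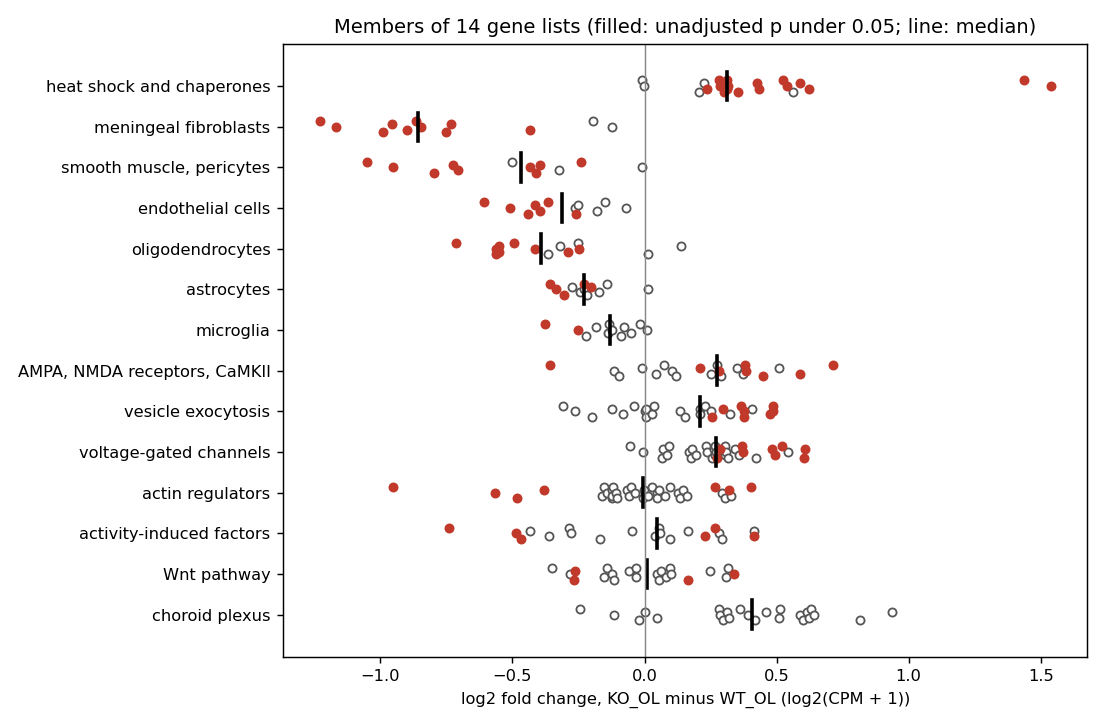
Log2 fold change (x axis, KO_OL minus WT_OL on the log2(CPM + 1) scale) of each member of 14 gene lists (y axis), filled where the unadjusted limma p is under 0.05, with the median as a line. The heat shock list has its median at 0.31 and the meningeal fibroblast list at -0.86, and the actin regulators lie on both sides of 0.

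A group of genes differed by the KO_OL mouse. *Drd2*, a dopamine receptor in the list of CA3, CA2 and mossy cell markers, was at 1.99, 9.54 and 13.8 CPM in KO_OL and 1.13, 0.74 and 1.97 CPM in WT_OL (1.80 ± 0.73, adjusted p = 0.23). *Penk*, the enkephalin precursor, was at 29.5, 140 and 116 CPM against 26.5, 22.5 and 28.9 CPM (1.57 ± 0.74, adjusted p = 0.27). *Baiap3*, an exocytosis gene among the hypothalamic markers, was at 13.9, 39.2 and 41.2 CPM against 11.6, 7.39 and 12.4 CPM (1.39 ± 0.53, adjusted p = 0.21). In all of them replicate 1 of KO_OL was close to WT_OL and the other KO_OL mice were high. Such a spread was not particular to KO_OL. *Penk* ran from 24.2 to 138 CPM in WT_Basal and 25.8 to 191 CPM in KO_RL, but 29.1 to 33.8 CPM in WT_RL. *Drd2* ran from 1.17 to 8.40 CPM in WT_Basal and 1.47 to 22.4 CPM in KO_RL, but 2.09 to 4.03 CPM in WT_RL. The striatal and cortical markers summed to 236 CPM in replicate 1 of KO_OL and 462 and 473 CPM in the others, and to 262 to 358 CPM in WT_OL. Their sum ran from 225 to 466 CPM in WT_Basal and 242 to 665 CPM in KO_RL, but 244 to 262 CPM in WT_RL. *Drd2* and *Penk* are not in this list. Member by member it was mixed between KO_OL and WT_OL, with 5 of 11 differences positive, 6 negative and a median of -0.09. At an unadjusted p under 0.05, 0 members were higher and 1 lower, beside 9.96% and 8.07% of all genes. Whether neighbouring tissue was taken with these hippocampi was not tested.

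Whether the genotype difference was itself different after original learning was tested against the untrained and the reversal learning mice. In limma, 0 genes passed an adjusted p under 0.05 for either difference, with 1908 at an unadjusted p under 0.05 against untrained mice (12.4%) and 1224 against reversal learning (7.98%). For *Hspa1a* the genotype difference exceeded that of untrained mice by 1.63 on the log2 scale (adjusted p = 0.37) and that after reversal learning by 1.62 (adjusted p = 0.46). For *Aox3* the values were -1.18 and -1.31, with the same adjusted p. For *Ccny* the value against untrained mice was -0.00.

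The number of calls depended on which mice entered. Leaving out any KO_OL library, or WT_OL replicate 2, left 0 genes at an adjusted p under 0.05 in limma, with 1172 to 2412 at an unadjusted p under 0.05. Leaving out WT_OL replicate 1 left 1 gene, and leaving out WT_OL replicate 3 gave 2536, among them all 10 called with every library. Over the 15 alternatives without library weights, *Ccny* passed the adjusted threshold in 10, *Hspa1b* in 8, *Hspa1a* in 7 and *Ranbp3l* in 4.

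**Figure D4:**
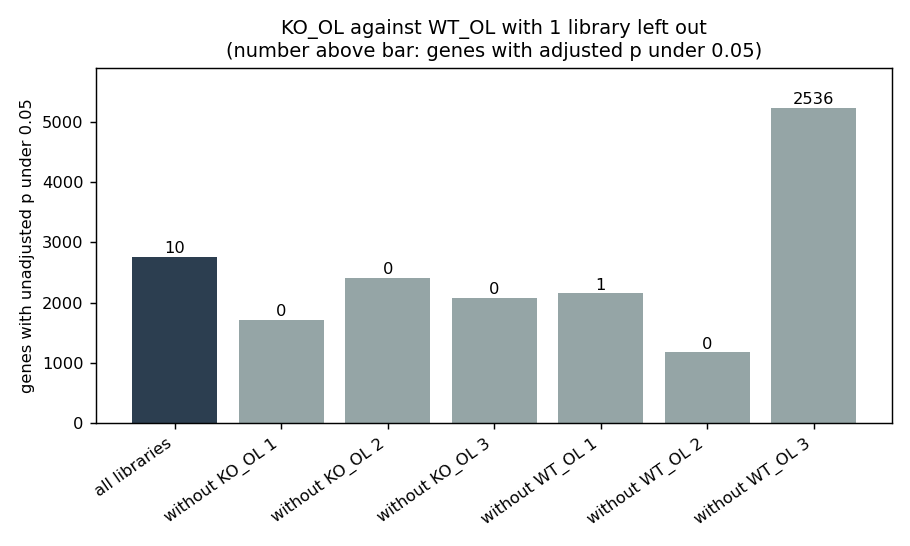
Genes with an unadjusted limma p under 0.05 (y axis, from 0) with all libraries and with 1 KO_OL or WT_OL library left out (x axis), and above each bar the genes with an adjusted p under 0.05. The bar without WT_OL replicate 3 reaches 5243 genes and that without WT_OL replicate 2 reaches 1172.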

How the data were processed

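The authors aligned paired reads to mm10 with STAR 2.5.1, normalized gene counts by the TMM method of edgeR 3.12.1 in R 3.3.0 and deposited the log2 result in 1 table. The methods describe CPM floored at 1, but the deposited values are log2(CPM + 1), since undoing that scale gave whole reads in 100% of values, within 0.05 of a read. Libraries were prepared with a stranded mRNA kit.

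The log2 values were fitted with limma 3.58.1 in R 4.3.3, with a mean for each of 6 groups over 18 libraries, 12 residual degrees of freedom and a variance trend, with Benjamini-Hochberg adjustment over 15329 genes. Fold changes are differences of mean log2(CPM + 1) and understate the change of low genes. Tests were two-sided.  Named genes were *Ccny*, called genes without overlap (at most 12 per direction, filled to 8 with genes past 1.5-fold, an unadjusted p under 0.05 and a mean of at least 1 CPM), and up to 4 members of each of 39 lists with the smallest p under 0.05. Genes and lists were chosen with earlier results of these data known. *Fos*, *Ccnyl1*, *Cdk14*, *Cdk16*, *Lrp6* and *Meg3* fall outside this rule and were picked with their values known. Gene positions, lengths and GC content came from GENCODE M21 (GRCm38, 14769 symbols found directly and 454 under a later symbol), and promoters from RefSeq. Reads were recovered and figures drawn in Python 3.11.15 (pandas 2.3.3, matplotlib 3.10.9). Alternatives covered library weights, scale, filter, normalization, GC content, voom on recovered reads, a replicate block and left-out libraries. Limma's planned library weights (arrayWeights, default method) stopped before convergence, and the gene by gene method was added after the counts of the default had been seen.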

Additional observations from a re-analysis of the deposited data

Results flagged for a closer look

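For 10 of the 111 named genes every KO mouse lay on one side of every WT mouse after original learning and on the opposite side in another condition. After original learning alone the groups did not overlap for 7.61% of all genes (KO_OL higher) and 8.89% (lower). The share of all genes with such a switch is not given, so the 10 cannot be set against it. Groups of 3 were not examined for single outlying mice. Against untrained mice, the genotype difference after original learning minus that in untrained mice was 1.63 on the log2 scale for *Hspa1a*, 0.44 for *Scn2b*, -0.41 for *Dvl1*, -0.49 for *Fgfr3*, -0.27 for *Gja1* and 0.80 for *Amigo2*. Against reversal learning it was 0.67 for *Chgb*, -1.14 for *Malat1*, -0.74 for *Rgs5* and 0.57 for *Chga*. The differences were tested as interaction terms in limma, and none passed an adjusted p under 0.05 (0.37 to 0.39 against untrained mice and 0.46 to 0.58 against reversal learning). In untrained mice *Hspa1a* was at 5.61 ± 0.13 CPM in WT_Basal and 4.79 ± 0.22 CPM in KO_Basal (SD, n = 3), a log2 difference of -0.19.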

How the results depend on the processing

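The count of genes with an adjusted p under 0.05, 10 with all libraries, was 2 with only the libraries compared. These 2 were lower in KO_OL, and 1 was among the 10. With CPM floored at 1 the count was 11, with 5 among the 10. It was 16 without a variance trend, including all 10, and 6 after quantile normalization, all among the 10. With 1 library left out it was 0 to 2536. It was 2536 without WT_OL replicate 3, 1 without WT_OL replicate 1 and 0 without WT_OL replicate 2 or any KO_OL library. With the planned library weights it was 6887, but limma's default estimate stopped before convergence and gave WT_OL replicate 1 a weight of 301, beside 0.118 and 0.224 for replicates 2 and 3. The gene by gene estimate, added after those counts were seen, gave weights of 7.03, 0.208 and 0.381 and 4190 genes. Under both, WT_OL rests mainly on 1 mouse, so these fits are left out of the tallies over alternatives. The count past 1.5-fold, 216, was 332 with the planned weights, 417 with a pseudocount of 0.25 CPM, 515 with voom and 129 to 632 with 1 library left out, lowest without WT_OL replicate 2 and highest without WT_OL replicate 3. The difference from untrained mice, 0 genes, gave 3902 and 2056 genes with the planned and the added weights, 1 with CPM floored at 1 and 0 to 907 with 1 library left out (907 without WT_OL replicate 3). The difference from reversal learning, 0 genes, gave 494 and 48, 3 with CPM floored at 1 and 0 to 3 with 1 library left out (3 without WT_OL replicate 3). The causes were not tested.

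Same-numbered KO_OL and WT_OL libraries did not deviate together (r across genes -0.09, 0.06 and -0.09). Unlike-numbered pairs ran from -0.13 to 0.18, so this check cannot decide whether the numbers pair the mice. A replicate block gave 10 genes, 9 of them shared, and 215 past 1.5-fold. Over 111 named genes and their alternatives without library weights, 1514 of 1663 values kept direction and side of the threshold, 74 passed it only in the alternative, 75 lost it and 0 turned direction. Only the 10 called genes could lose the threshold, so all 75 losses were theirs. The other named genes were not called to begin with, so the 1514 does not measure how stable the calls were. With 3 mice a group, differences near the spread between mice were not detectable.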

Other observations

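Nuclear noncoding RNAs had lower values in KO_OL, with 4 of 11 at an unadjusted p under 0.05, 0 higher and a median log2 fold change of -0.32, beside 8.07% of all genes lower. The count was 2 without WT_OL replicate 2 and 7 without WT_OL replicate 3, fits in which 1172 and 5243 of all genes passed in either direction. *Meg3* was at 385, 607 and 702 CPM in KO_OL and 998, 1115 and 555 CPM in WT_OL, so the groups overlapped (adjusted p = 0.29 in limma). Ribosomal protein genes had a median of -0.18, which was 0.00 without WT_OL replicate 2. *Alas2*, the heme synthesis enzyme of red blood cells, was at 3.47, 3.71 and 2.41 CPM in KO_OL and 32.8, 7.77 and 4.74 CPM in WT_OL, with 1 WT_OL mouse far above the others (adjusted p = 0.19 in limma). Within 2000000 bases of *Ccny*, 2 of 12 other genes had an unadjusted p under 0.05, beside 18% of all genes, and none passed the adjusted threshold.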
